A study of Homo sapiens with 28 samples.

Results

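Open chromatin was compared between AN3CA cells that expressed ARID1B_Block13del and AN3CA cells that expressed ARID1B_A457_G461del, 2 altered forms of the chromatin remodeling subunit ARID1B. The cells were grown in medium with 15% serum. The comparison rests on 4 of the 28 ATAC-seq libraries of the series, the 2 replicates of each construct, chosen by their titles. The peak names of all 4 carry the same date code, which they share with 4 further libraries, those of ARID1B_Block9del and ARID1A_Y42S. AN3CA is an established human endometrial carcinoma line. In ATAC-seq, a transposase cuts and tags accessible DNA, so that open regulatory sites appear as peaks.

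ARID1B and its paralogue ARID1A are mutually exclusive subunits of the canonical BAF complex, an ATP-dependent remodeler that slides and evicts nucleosomes and keeps many enhancers open. Both proteins have a long, intrinsically disordered N-terminal part, a DNA-binding ARID domain and a C-terminal region through which they join the core of the complex. ARID1A is often inactivated in endometrial carcinoma, and cells without it can come to depend on ARID1B. The series as a whole concerns condensation of this complex through ARID1A and ARID1B, and the comparison here asks how much open chromatin each deletion form supports.

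The name ARID1B_A457_G461del denotes a deletion from residue A457 to residue G461. Which residues Block13 spans was not taken from any source here. The genotype label of all 4 libraries names the empty vector control, as it does in 10 libraries of the series whose titles name a construct, and the groups follow the titles. The peak names in the 4 lists carry the constructs of the titles as well. ARID1B_WT, the wild-type protein, and 2 of the 4 Empty_vector libraries (replicates 3 and 4) share another date code and served as outside references. The labels do not state the level of the expressed proteins, which endogenous ARID1 proteins the cells retain, or whether replicates were separate cultures, so the spread between replicates may be technical. Genes were not assigned to sites and lineage markers were not checked, since no hg19 annotation was used here.

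The Block13del lists were shorter. They held 33259 and 31418 peaks as deposited, against 52750 and 50763 for A457_G461del, with no overlap between the groups. Covered sequence was 24.0 and 22.1 Mb with Block13del and 34.6 and 32.2 Mb with A457_G461del. ARID1B_WT had 63529 and 59826 peaks, and ARID1B_Block9del had 30137 and 30140. List length also follows read depth, which is unknown for peak lists, so the main comparison used the 19433 most significant peaks of each list by -log10 p-value. That is the length of the shortest of the 28 lists on chromosomes 1 to 22 and X. The last peak inside this limit had a -log10 p-value of 11.9 and 11.5 in the Block13del libraries and 17.0 and 16.0 in the A457_G461del libraries, and the first peak outside differed from it by less than the digits given.

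Overlapping peaks of the trimmed lists of all 28 libraries were merged into regions, and the 32972 regions called by at least 2 libraries are the sites below. All 4 libraries called 13790 sites, 81.4% of the 16946 called by both A457_G461del libraries. Both A457_G461del libraries and neither Block13del library called 2125 sites, which are named lost. That is 6.44% of all sites. In the opposite direction, 1599 sites (4.85% of all) are named gained with Block13del. Within a construct, 4408 sites (13.4% of all) were called by just 1 of the A457_G461del libraries and 4183 (12.7%) by just 1 of the Block13del libraries. Both libraries called 51.4% of all sites with A457_G461del and 52.0% with Block13del. With any 1 of the 4 libraries left out, 2404 to 2832 sites were gained and 2580 to 3123 lost, since a single library then speaks for its construct. In whole lists, which differ in length, 12141 of 95411 sites met the definition of lost (12.7%) and 237 that of gained (0.248%). In equal lists, lost sites were narrow, with a median width of 821 bp against 1457 bp for the shared sites and 854 bp for the gained.

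Block13del resembled Block9del, ARID1A_Y42S and Empty_vector more than it resembled A457_G461del. The Jaccard index, the sites called by both lists divided by those called by either, was 0.804 between the Block13del replicates and 0.794 between the A457_G461del replicates. Between the constructs it lay from 0.660 to 0.676 over the 4 pairs of libraries. Between Block13del and ARID1B_Block9del it lay from 0.799 to 0.805, close to the value between the Block13del replicates themselves. Between Block13del and ARID1A_Y42S it lay from 0.739 to 0.787, and between Block13del and the Empty_vector libraries, all of other date codes, from 0.743 to 0.785. The likeness was thus not particular to Block9del. Of the groups set beside it, A457_G461del was closest to ARID1B_WT, at 0.720 to 0.729, against 0.582 to 0.605 for Block13del with ARID1B_WT. These indices were not tested.

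A measure chosen without the 4 libraries was the recovery of sites opened by the wild-type protein. These are the 4143 sites that both ARID1B_WT libraries and neither Empty_vector library of the same date code called. The A457_G461del libraries called 67.1% and 68.0% of them, and the Block13del libraries called 20.8% and 18.8%. Both Block13del values lay far below both A457_G461del values. The Block13del mean was 19.8% ± 1.42 and the A457_G461del mean 67.6% ± 0.631 (SD, n = 2 each), so Block13del stood 47.8 points lower, larger than the spread between replicates. A two-sided exact permutation test of that gap gave p = 0.333, the smallest that the 6 splits of 2 against 2 libraries allow. No comparison of 2 against 2 libraries here could pass a threshold of 0.05. Beside them, ARID1B_S320_G327del, another deletion form, called 82.8% ± 0.273 (SD, n = 2), but it carries the date code of the libraries that define the 4143 sites, so construct and date code cannot be told apart there. Of the libraries that share the date code of the compared constructs, ARID1B_Block9del called 3.30% ± 0.563 and ARID1A_Y42S 4.20% ± 2.12 (SD, n = 2 each). Empty_vector replicates 1 and 2, which did not help to choose the set, called 2.66% and 2.73% without an ARID1 construct. They carry other date codes, which differ from each other. No Empty_vector library shares the date code of the compared constructs, so construct and date code cannot be told apart in this baseline. For scale, both A457_G461del libraries together called 51.4% of all sites, and just 1 of them called a further 13.4%. With Block13del these shares were 52.0% and 12.7%. Recovery is given per library, and the share of all sites that a single library called is higher than these joint shares. In the whole lists the A457_G461del libraries called 99.2% and 98.8% of the 4143 sites. The Block13del libraries called 77.0% and 72.2% there, and the Block9del libraries 36.0% and 39.4%.

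**Figure D1:**
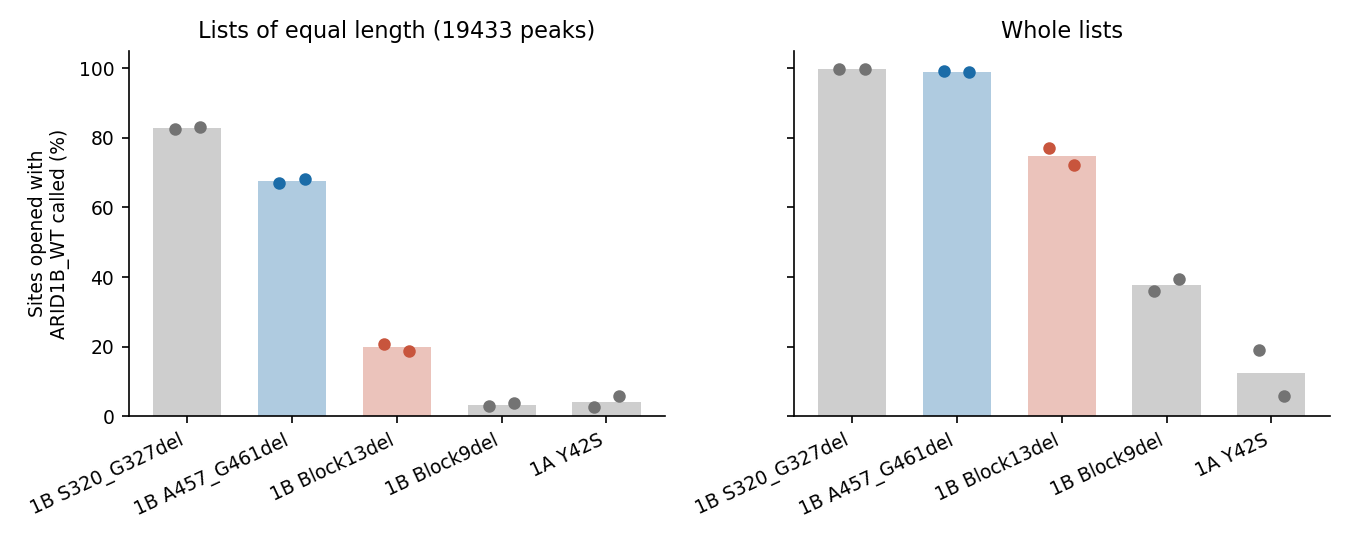
Percent of the 4143 sites opened with ARID1B_WT that each library called (vertical axis), in lists of equal length (left) and in whole lists (right). Points are libraries and bars are means of 2. In equal lists Block13del lies near 20% and A457_G461del near 68%, and Block9del and Y42S lie at the low end.

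The 2 deletions also differed in how high these sites stood. Among the 5000 most significant peaks, the A457_G461del lists reached 4.57% ± 0.666 of the sites and the Block13del lists reached none of 4143. Among the top 10000 peaks the values were 23.3% ± 0.922 and 0.676% ± 0.307, and among the top 15000 they were 48.8% ± 1.52 and 5.88% ± 0.700. The gap was widest of the lengths tried at 19433 peaks, and at 31383 peaks, the length of the shorter Block13del list, it was 19.3 points, with 92.4% ± 0.444 against 73.2% ± 1.33 (SD, n = 2 each). The A457_G461del libraries lay above the Block13del libraries at every length tried. Most sites opened by the wild-type protein were thus present in the Block13del lists, but low in them.

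**Figure D2:**
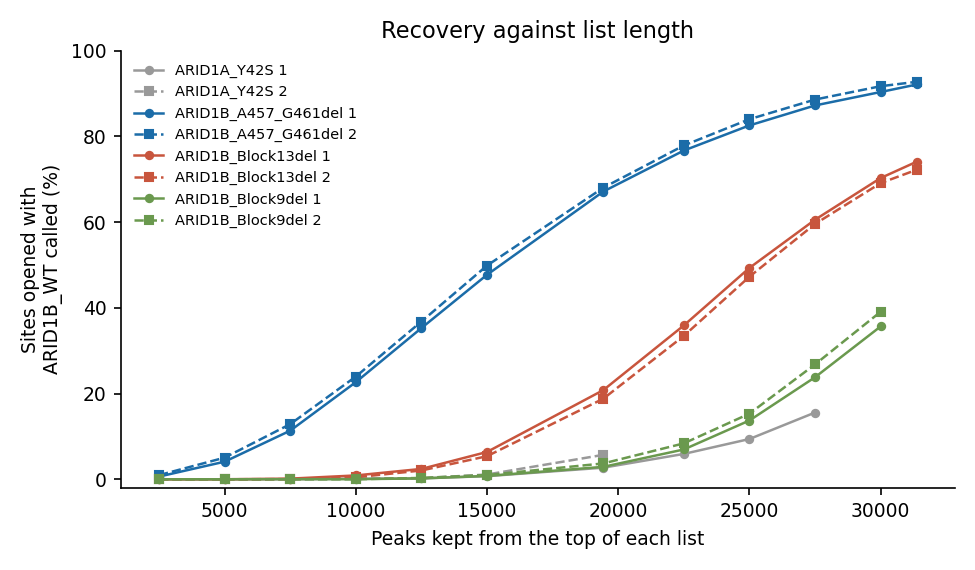
Percent of the 4143 sites opened with ARID1B_WT (vertical axis) among the top peaks of each list (horizontal axis, number of peaks kept), one line per library. The A457_G461del lines rise from the top of the list, the Block13del lines rise after about 15000 peaks and the Block9del and ARID1A_Y42S lines later still, each line ending with its list.

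Recovery was lower at sites that were weaker in ARID1B_WT, in both constructs. Strength was the mean rank in the trimmed ARID1B_WT lists, and the 4143 sites were divided into quartiles by it. In the strongest quartile A457_G461del called 95.3% ± 0.546 and Block13del 48.6% ± 3.0. In the second quartile the values were 76.1% ± 1.09 and 16.0% ± 2.39, in the third 57.6% ± 1.57 and 8.40% ± 0.546, and in the weakest 41.4% ± 0.683 and 6.28% ± 0.820 (SD, n = 2 each). The difference in points was largest in the second quartile, at 60.1. At full length the order of the gaps turned. In the strongest quartile Block13del called 95.8% ± 1.23 and A457_G461del every site, a gap of 4.25 points. In the weakest, Block13del called 58.3% ± 3.76 and A457_G461del 97.6% ± 1.09, a gap of 39.3 points (SD, n = 2 each).

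Loss was next read against strength and against the state of a site without the wild-type protein. Among the 14248 sites that both A457_G461del and both ARID1B_WT libraries called, 1421 (9.97%) were lost with Block13del. By quartile of strength in ARID1B_WT, 0.505% of the strongest, 5.67% of the second, 13.95% of the third and 19.8% of the weakest were lost. The gap between the weakest and the strongest quartile, 19.3 points, was 6.68 under ranking by fold enrichment, 10.2 at 9717 peaks and 52.2 in whole lists. The rise was seen among sites that neither Empty_vector library called. Of these, 9.63% (18 of 187) were lost in the strongest quartile, 34.3% (200 of 583) in the second, 60.7% (488 of 804) in the third and 76.3% (684 of 897) in the weakest. Of the sites that both Empty_vector libraries called, 0 of 3360 were lost in the strongest quartile, which allows a share of up to 0.0893%, and 10 of 2551 (0.392%) in the weakest.

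The shares also differed among sites of like strength in ARID1B_WT. The weakest quartile had a median mean rank in ARID1B_WT of 13905 where neither Empty_vector library called the site and of 13811.5 where both did, and the shares lost were 76.3% (95% Wilson interval 73.4% to 78.9%) and 0.392% (0.213% to 0.720%). The intervals cover counting error only. The difference, 75.9 points, was 37.2 at 31383 peaks, a length that the lists of Empty_vector 3 and 4 do not reach, and 51.4 under ranking by fold enrichment. The sites without an Empty_vector call were narrower, with a median of 871 bp against 1418 bp. Over all strengths, 1390 of 2471 sites without an Empty_vector call were lost (56.3%), against 14 of 11558 with both calls (0.121%). The Empty_vector libraries come from another date code. With the state read in Block9del instead, which shares the date code of the compared libraries, 77.9% of the weakest quartile was lost where neither Block9del library called the site (687 of 882) and 0.271% where both did (7 of 2586), an alternative added after the values were seen. The Block13del lists resembled those of Block9del and of Empty_vector, as the Jaccard indices above give. A low share lost at sites with both calls therefore partly restates that likeness.

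**Figure D3:**
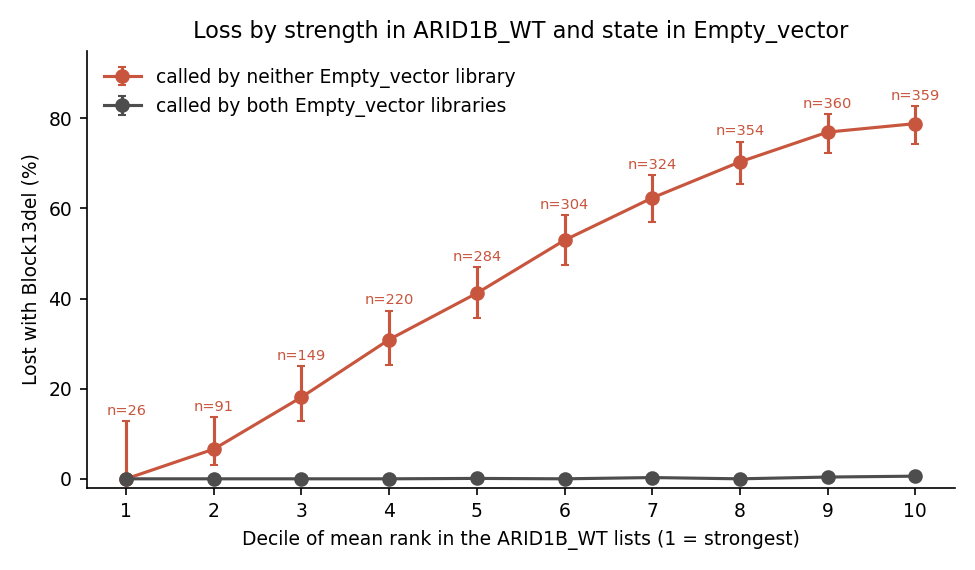
Percent of sites lost with Block13del (vertical axis) by decile of mean rank in the ARID1B_WT lists (horizontal axis, 1 is the strongest), with 95% Wilson intervals and the number of sites in each bin of the upper line. Sites without an Empty_vector call (red) rise from 0 of 26 to 78.8%, and sites with both calls (grey) stay at or under 0.591%.

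With peaks ranked by -log10 p-value, most lost sites were present in the Block13del lists past the limit. Under ranking by fold enrichment this turned, and 59.6% of the sites then lost were in neither whole Block13del list. Whole lists differ in length, so the ranks given from here on describe a site's place from the top of each list and do not measure a change of signal. At full length both Block13del libraries called 1437 of the 2125 lost sites (67.6%), 1 library called 395 (18.6%) and neither called 293 (13.8%). Block13del 1 called 79.4% of them at a median rank of 24408 in a list of 33224, and Block13del 2 called 74.4% at a median rank of 24206.5 in a list of 31383. With 1 of the 4 libraries left out, the share in no whole Block13del list was 18.8% to 24.9%, highest without Block13del 1, followed by 20.7% without Block13del 2. In the A457_G461del lists the sites that stayed in both Block13del lists had a median mean rank of 13712, and those in neither 15460.5. The sites in neither list were narrow, with a median width of 559 bp against 917 bp for those in both.

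**Figure D4:**
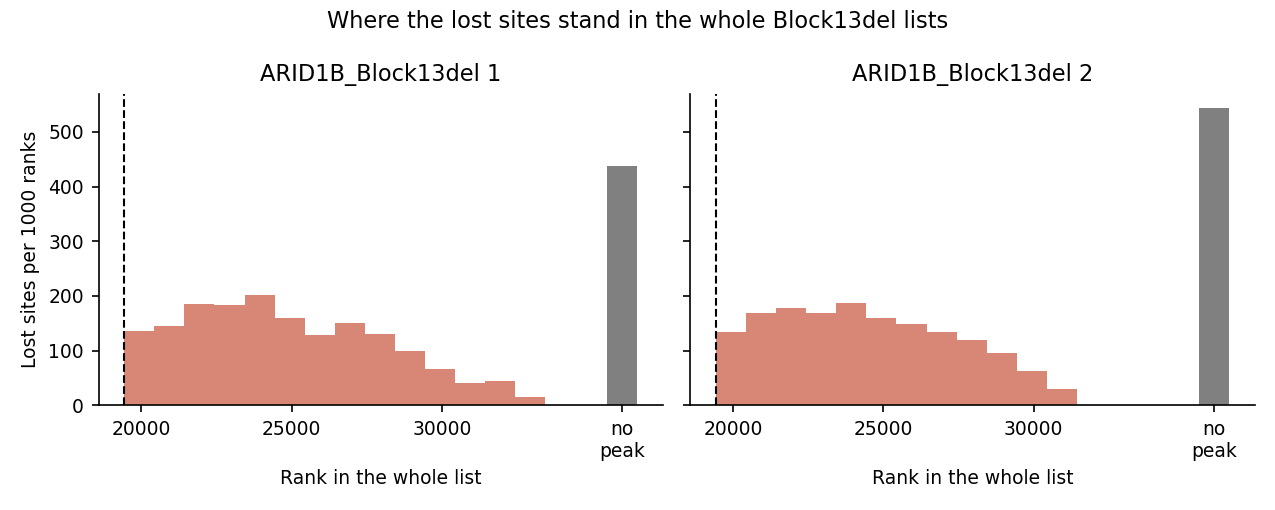
Number of lost sites (vertical axis) by their rank in the whole Block13del lists (horizontal axis, in equal steps of rank), for each Block13del library. The dashed line is the limit of 19433 peaks and the grey bar counts sites with no peak. With this ranking by -log10 p-value most lost sites stand below the limit but within the list, at median ranks of 24408 and 24206.5, whereas under ranking by fold enrichment 59.6% of the sites then lost were in neither list.

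Sites that all 4 libraries called in lists of equal length differed in rank. Among the 13790 shared sites, both Block13del ranks were worse than both A457_G461del ranks in 2050 (14.9%) and better in 3613 (26.2%). Of the 527 shared sites that neither Empty_vector library called, 456 (86.5%) ranked worse in both Block13del libraries and 12 (2.28%) ranked better. Their median mean rank was 7246.5 with A457_G461del and 15737 with Block13del. Of the 12968 shared sites that both Empty_vector libraries called, 11.5% ranked worse and 27.3% better, and the median mean rank was 7045.5 against 6619.25. The replicates of a construct differed by a median of 1475 places (A457_G461del) and 2007 places (Block13del) at the 527 sites, less than the median shift of 8316 places between the constructs. In a list of fixed length, some sites stand higher wherever others stand lower.

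The strongest sites differed as well. In the strongest quartile of strength in ARID1B_WT, all 133 shared sites without an Empty_vector call ranked worse in both Block13del libraries, at a median mean rank of 14362 against 4093 with A457_G461del. The 3360 sites of that quartile that both Empty_vector libraries called had medians of 1837.75 with Block13del and 1816.5 with A457_G461del. Of these, 17.2% ranked worse and 15.6% better. In the weakest quartile 65.5% of 55 shared sites without an Empty_vector call ranked worse and 5.45% better. Among the 2487 shared sites there with both calls, 5.79% ranked worse and 39.3% better. The 55 were the 6.13% of 897 sites without an Empty_vector call that both trimmed Block13del lists kept, while 684 were lost. In the strongest quartile the 133 were 71.1% of 187. The shares that ranked worse leave out the lost sites, so they do not compare the quartiles.

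The 15 lost sites with the best mean rank in ARID1B_WT were 561 to 1635 bp wide (hg19). Neither Empty_vector library of the ARID1B_WT date code called any of them at full length, and 13 of the 15 were in none of the 4 whole Empty_vector lists. The first lies at chromosome 8, 99013963 to 99014820. It ranked 1095 and 2351 in the ARID1B_WT lists, 5182 and 5921 with A457_G461del, 21798 and 23731 with Block13del, and 28912 and 28611 with Block9del. Its fold enrichment over the caller's background, a value of the authors, was 8.65 and 8.37 with A457_G461del and 5.38 and 5.04 with Block13del. All 8 of these libraries had a peak at the site, and its place was lower in A457_G461del than in the wild type, lower in Block13del and lowest in Block9del. The choice of the lost site with the best ARID1B_WT rank largely fixes the order of wild type, A457_G461del and Block13del, so this order is a description.

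The second site, at chromosome 5, 139104417 to 139106051, ranked 9040 and 4565 with A457_G461del and 23930 and 24342 with Block13del. The third, at chromosome 1, 158114677 to 158115760, stood higher with A457_G461del than any other of the 15, at ranks 3752 and 2498, and ranked 21793 and 20511 with Block13del. The fourth, at chromosome 10, 93691260 to 93692038, ranked 6158 and 4684 against 27698 and 20677, with a wide gap between the Block13del replicates. The definition of a lost site fixes the direction of these ranks, which are given as a description.

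The fifth site, at chromosome 10, 75666265 to 75667072, lay just past the limit with Block13del, at ranks 19639 and 19911, against 6027 and 4931 with A457_G461del, and no Block9del library called it. The sixth, at chromosome 7, 73406013 to 73407112, ranked 7718 and 9461 against 21586 and 19552, and belongs to a group of 4 lost sites within 22.8 kb. Over the 15 sites, the median rank was 7718 and 5921 in the A457_G461del libraries and 21798 and 22706 in the Block13del libraries. Median fold enrichment was 7.52 and 7.28 with A457_G461del and 4.77 and 5.13 with Block13del. Both Block13del libraries had a peak at all 15 at full length, and the Block9del libraries had one at 7 and 6 of them.

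The 10 strongest lost sites without a peak in either whole Block13del list stood lower in ARID1B_WT, at mean ranks of 5120 to 8056, and were 305 to 951 bp wide. The first, at chromosome 7, 2125770 to 2126455, ranked 13269 and 10474 with A457_G461del, at folds of 7.51 and 7.84. The site at chromosome 19, 8219550 to 8220047, ranked 7605 and 8090 with A457_G461del and 5811 and 6321 with ARID1B_WT. The site at chromosome 17, 74550061 to 74550676, ranked 12252 and 6439 with A457_G461del. Of the 10, 9 were in none of the 4 whole Empty_vector lists. The exception, at chromosome 7, 130406517 to 130407188, was called by 23 of the 28 libraries, among them Block9del 2 at rank 7613 and Empty_vector 3 and 4 at ranks 8605 and 8426.

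Gained sites were next placed in the whole A457_G461del lists. At full length both A457_G461del libraries called 1447 of the 1599 gained sites (90.5%) and neither called 24 of them, so most gained sites had a peak with both constructs. The median rank of the gained sites in the A457_G461del lists was 24372 and 24596.5. The Empty_vector libraries called 66.4% to 75.9% of them in lists of equal length, Block9del 78.8% ± 0.752, and ARID1B_WT 15.1% ± 2.74 (SD, n = 2 each for the constructs). For scale, each of these lists can call at most 19433 of the 32972 sites. The 4143 sites opened with ARID1B_WT made up 12.6% of all sites, 65.4% of the lost (1390) and 0.188% of the gained (3).

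The strongest gained site, at chromosome 16, 56640990 to 56644407, was 3418 bp wide. It ranked 5445 and 6297 with Block13del, 20974 and 23668 with A457_G461del, 25234 and 23696 with ARID1B_WT, and 4854 and 4527 in Empty_vector 3 and 4. The next, at chromosome 11, 67722728 to 67723658, ranked 7568 and 8144 with Block13del and 22057 and 19908 with A457_G461del, but also high with ARID1B_WT, at 5000 and 7875. The third, at chromosome 14, 67993296 to 67993944, ranked 8032 and 9209 with Block13del and 20602 and 21175 with A457_G461del. All 5 best gained sites were in all 4 whole Empty_vector lists. So were most gained sites, since these lists called 87.5% to 99.9% of the 1599.

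Sites called with Empty_vector but not with ARID1B_WT were measured in the same way. Both Empty_vector libraries and neither ARID1B_WT library called 3106 sites. In a list of fixed length, newly called sites move others past the limit, so these sites need not have lost signal. A457_G461del called 30.4% and 29.4% of them and Block13del 69.1% and 67.7%, which did not overlap, with means of 29.9% ± 0.706 and 68.4% ± 0.933 (SD, n = 2 each). Block9del called 76.9% ± 1.64. S320_G327del, which carries the date code of the libraries that chose these sites, called 10.4% ± 0.319. Of all sites, both libraries together called 51.4% with A457_G461del and 52.0% with Block13del, and just 1 library called a further 13.4% and 12.7%. At full length the groups met, with 93.7% and 91.7% for A457_G461del and 91.7% and 88.9% for Block13del.

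Lost sites were read in the libraries that took no part in choosing them. In lists of equal length ARID1B_WT called 75.01% and 78.1% of the 2125 lost sites and S320_G327del 79.2% and 78.9%. ARID1A_WT, the wild-type paralogue, called 48.7% and 49.2%, at ranks that centred on the limit (medians of 19785 and 19425 at full length). A trimmed list can call at most 19433 of the 32972 sites, so these 2 values are not read as an excess over all sites. ARID1A_DBDmut, with a mutated ARID domain, called 24.6% ± 0.366, ARID1A_delIDR1, a truncation, 22.3% ± 0.433 and ARID1A_CBR, another truncation, 11.7% ± 0.266. The libraries of these ARID1A constructs carry the date codes of Empty_vector 1 and 2. Block9del called 2.85% ± 0.299 and the Empty_vector libraries 2.78% to 4.61% (SD, n = 2 each for the constructs). At full length Block9del called 30.6% and 35.2% of the lost sites and the Empty_vector libraries 5.65% to 20.2%, against 79.4% and 74.4% for Block13del. ARID1B_WT called 99.1% and 98.8%. Of the 2125 lost sites, 293 (13.8%) were called by neither ARID1B_WT library in lists of equal length.

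By chromosome, the share of A457_G461del sites that were lost ran from 3.14% on chromosome 19 (29 of 925) to 18.1% on chromosome 5 (212 of 1169), with 17.6% on chromosome 2. Chromosome 19 held few sites without an Empty_vector call, 3.89% of its A457_G461del sites against 30.1% on chromosome 5. Among sites without an Empty_vector call the order was different, with 72.2% lost on chromosome 19 (26 of 36), 58.2% on chromosome 5 (205 of 352) and 72.9% on chromosome 2 (210 of 288). The lowest was chromosome 21, with 5 of 13, and the highest X, with 19 of 24. Most of these intervals overlap, and differences between chromosomes were not tested.

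**Figure D5:**
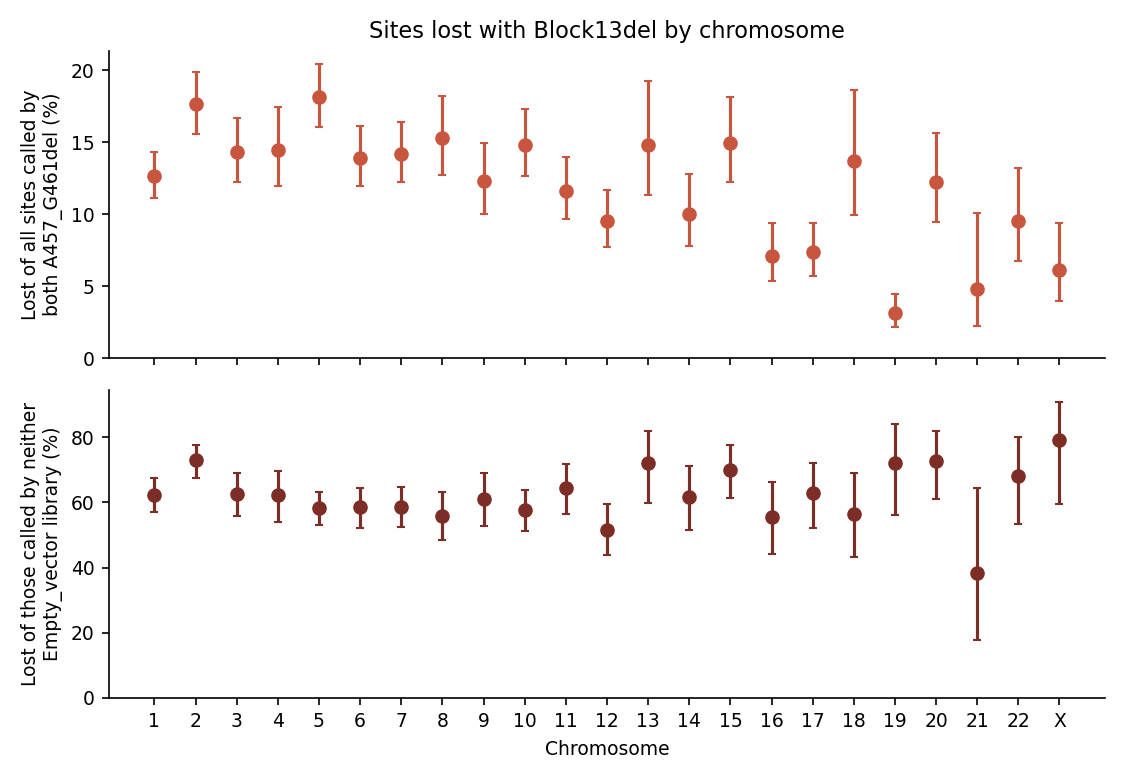
Percent of sites lost with Block13del by chromosome, with 95% Wilson intervals, among all sites that both A457_G461del libraries called (top) and among those that neither Empty_vector library called (bottom). Chromosome 19 is lowest in the top panel at 3.14% and stands at 72.2% in the bottom panel.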

How the data were processed

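Each library has 1 deposited broadPeak list. The submitters' processing notes name MACS2, SAMtools 0.1.19, Picard 2.8.0, Bowtie2, bcl2fastq and build hg19. The sources used here do not state caller options or a control. The deposited values are the authors' fold enrichment per peak (a ratio to background), -log10 p-value and -log10 q-value, whose smallest -log10 q-value was 3.00 to 3.03 in each list. No read counts are part of the lists, so depth is unknown. A list of fixed length removes differences in list length, not differences in signal over background.

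Chromosomes 1 to 22 and X were kept. Peaks were ranked by -log10 p-value, trimmed to 19433, and merged where they overlapped by 1 bp. A library called a region that a peak of its list overlapped. Ranks came from the best overlapping peak. Recovery was compared by exact two-sided permutation of the libraries. Shares have 95% Wilson intervals, at most 1.51 points to either side for recovery. Limits for a 0 used 3 counts. Named sites were the 15 lost sites that ranked best in ARID1B_WT, the 10 best among those absent from both whole Block13del lists, and the 5 gained sites that ranked best in Block13del. Alternatives changed list length, ranking, overlap, the q-value, the reference libraries and the replicates used. Planned gene lists and cell markers were not used, as no hg19 annotation was used here. Calls were tested on simulated lists. Python 3.11.15, pandas 2.3.3 and SciPy 1.17.1 were used. The comparison, sets and tests were chosen with earlier results of these data known.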

Additional observations from a re-analysis of the deposited data

How the results depend on the processing

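The direction of the recovery difference was the same in all alternatives, at -26.8 points (shortest of the 4 lists) to -50.9 (9717 peaks), with p = 0.333 throughout (exact permutation tests). A fit with a replicate block gave -47.8 points (exact sign-flip test, p = 0.5, the smallest that 2 pairs allow). The pairing rests on the numbers alone, and replicate 2 stood above replicate 1 with A457_G461del and below it with Block13del. Leaving out 1 library in turn gave -48.8 to -43.7 points. Alternatives that changed the lists, the overlap or the reference libraries chose the sites opened with ARID1B_WT anew.

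Counts followed list length. Lost and gained sites numbered 12141 (12.7% of all) and 237 (0.248%) in whole lists, 11017 and 186 in whole lists at a -log10 q-value of 5, and 799 and 462 at 9717 peaks. At 31383 peaks, where Empty_vector 3 and 4 are shorter than the limit, 2641 were lost and 2434 gained, and under ranking by fold enrichment 2319 and 2132, so that both directions were nearer in number than the 2125 and 1599 of the main ranking. Without each of the 4 compared libraries in turn, 2580 to 3123 were lost and 2404 to 2832 gained, since 1 library then decides.

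The share lost in the weakest less the strongest quartile of ARID1B_WT, 19.3 points, was 52.2 in whole lists, 52.5 at the stricter q-value, 16.1 at 31383 peaks, 10.2 at 9717 peaks, 14.7 at equal covered length, 6.68 when ranked by fold enrichment and 26.8 with a 50% overlap of the region (19.5 to 23.2 without 1 library). The share lost in the weakest quartile without an Empty_vector call less that with both, 75.9 points, was 74.5, 80.0, 37.2, 80.7, 76.5, 51.4 and 84.7 in the same order, 78.0 with all 4 Empty_vector libraries, 77.6 with the state in Block9del and 70.7 to 84.3 without 1 library.

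Of lost sites, 13.8% were absent from both whole Block13del lists. This share was 92.8% at 31383 peaks, where the limit nearly equals the whole lists, 1.13% at 9717 peaks, 3.64% at equal covered length, 59.6% when ranked by fold and 8.42% with the 50% overlap, and 18.8% to 24.9% without 1 library. When ranked by fold enrichment 11 of the 15 best lost sites no longer met the definition, and none of them did at 31383 peaks or in whole lists, since both Block13del lists hold all 15. All 5 named gained sites likewise failed the definition at 31383 peaks and in whole lists, and 4 of the 5 did under ranking by fold. Depth is unknown, and absence of a peak does not show closed chromatin.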

Other observations

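Some lost sites had close neighbours. When lost sites no more than 50 kb apart were joined, a distance chosen after the data were seen, 484 of the 2125 (22.8%) lay in 213 groups of 2 or more. The largest group, 5 lost sites in 88.8 kb, lies at chromosome 8, 128831815 to 128920640, with 2 shared sites in the same span. At chromosome 7, 73406013 to 73428847, all 4 sites of a 22.8 kb span were lost, with a median mean rank of 10360.25 in A457_G461del and median ranks of 22876 and 20347 in the Block13del lists. At chromosome 1, 225923084 to 225955967, 4 of the 5 sites in 32.9 kb were lost, and none of those 4 was in any whole Empty_vector list. Of the 14 groups of 4 or 5 lost sites, 6 lie on chromosome 5, which held 212 of the 2125 lost sites. None of these 14 held a gained site. They were drawn around lost sites, which cannot be gained, so the 4.85% of all sites that were gained is no measure for them. Whether lost sites group more than other sites was not tested.

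A small class of lost sites did not follow the pattern. Of the 38 lost sites that both Empty_vector libraries of the ARID1B_WT date code called, 23 had no peak in either whole Block13del list, 3 had a peak in 1 and 12 in both. Of the 1390 lost sites opened with ARID1B_WT, 107 had no peak in either and 1065 had one in both.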
